A study of Papio anubis with 60 samples.

Results

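Induced pluripotent stem cells (iPSC, somatic cells reprogrammed to a pluripotent state) of the olive baboon, Papio anubis, were compared for 2 histone marks mapped by chromatin immunoprecipitation with sequencing (ChIP-seq). The members were all peaks of the H3K4me3 list and all peaks of the H3K27ac list on chromosomes 1 to 20, with the start, end and summit that the authors' peak caller gave them. The H3K4me3 list gave 308062 peaks and the H3K27ac list 213657, together 521719 of the 2116963 peaks in the 8 lists of the series. The peaks on chromosomes 1 to 20 made up 93.2% of the H3K4me3 list and 96.3% of the H3K27ac list.

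The series mapped H3K4me3, H3K27ac, H3K27me3 and H3K9me3 in iPSC and in embryonic stem cells (ESC), with 60 libraries in 10 groups. The iPSC came from lines 160-2 and M14939#3, and the ESC, used here for later comparison, from lines B4 and B15. Each mark had 3 replicates of each line, so the labels give 6 libraries for each mark and cell type and 12 for both marks in iPSC. How they were combined into the lists was not given. All lines grew on feeder cells in the same kind of medium, with 50000 cells per library, chromatin cut by micrococcal nuclease, and antibodies from Abcam for H3K4me3 and from Active Motif for H3K27ac. Each line belongs to 1 cell type, so line and cell type cannot be told apart. The lists name no genes, so the identity of the cells could not be checked against marker genes.

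H3K4me3, trimethylation of lysine 4 of histone H3, is laid down at promoters that are active or held ready, often over CpG-rich sequence. H3K27ac, acetylation of lysine 27 of the same histone, is written by p300 and CBP and is found at active promoters and active enhancers. The lysine that carries H3K27ac also carries H3K27me3, the mark of Polycomb repressive complex 2, and the 2 states cannot occupy the same histone tail. In pluripotent cells many promoters of developmental genes bear H3K4me3 together with H3K27me3 and are called bivalent.

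There was 1 list per mark, with no replicate of a list, so no p-value was computed and no difference could be set against the spread between cultures. In place of a test, most shares have beside them the level after one list was moved round each chromosome in 100 even steps, called the shifted level, which keeps the number, the width and the spacing of the peaks. Wilson intervals at 95% cover counting error only, and neighbouring peaks are not independent. The depth of the libraries is unknown, and the number of peaks in a list depends on it.

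The H3K4me3 peaks were wider and more numerous than the H3K27ac peaks. Median width was 290 bp for H3K4me3 (quartiles 186 and 503 bp) and 206 bp for H3K27ac (163 and 290 bp). The widest peaks measured 15.5 kb for H3K4me3 and 4.02 kb for H3K27ac. The H3K4me3 list covered 140.7 Mb, or 5.42% of the span of the chromosomes, and the H3K27ac list 54.4 Mb, or 2.10%. Fold enrichment over background, which the authors' caller gave each peak, had a median of 3.59 for H3K4me3 and 2.90 for H3K27ac. Firm peaks, those with a −log10 q of at least 5, made up 76.4% of the H3K4me3 list and 57.3% of the H3K27ac list.

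H3K4me3 peaks carried H3K27ac less often than H3K27ac peaks carried H3K4me3, and both did so well above shifted lists. The difference went with list length and peak strength: with the H3K4me3 list cut to the 213657 peaks of highest −log10 q the shares were 37.7% of H3K4me3 and 41.7% of H3K27ac peaks. With peaks of a −log10 q of at least 10 in both lists they were 15.8% and 62.9%. Among all H3K4me3 peaks, 100964 shared at least 1 bp with an H3K27ac peak, 32.8% (32.6 to 32.9), against a shifted level of 5.52% (lowest 5.36%, highest 5.75%). Of the H3K27ac peaks, 109246 shared at least 1 bp with an H3K4me3 peak, 51.1% (50.9 to 51.3), against a shifted level of 8.24% (8.02% to 8.58%). The observed shares were 5.94 and 6.20 times the shifted levels. Shifts of 20 to 118 kb, which keep each peak in its own neighbourhood, gave 6.62% for H3K4me3 and 9.92% for H3K27ac, and ratios of 4.95 and 5.15. The ratio was thus lower against local shifts, chosen after the data were seen, than against shifts along whole chromosomes.

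In base pairs the shares again followed the size of the lists, since both divide the same shared sequence. Both marks covered 28.9 Mb together, which was 20.6% of the H3K4me3 sequence against 2.13% in shifted lists, and 53.3% of the H3K27ac sequence against 5.51%. Shared sequence made up 17.4% of the sequence that either mark covered. The other mark covered at least 50% of the peak in 22.0% of H3K4me3 peaks and in 48.7% of H3K27ac peaks. It covered the whole peak in 3.06% of H3K4me3 peaks and 30.1% of H3K27ac peaks. H3K27ac was therefore mostly placed inside a longer H3K4me3 peak where the marks met.

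The same overlap was present on every autosome, and its size differed between them. The mean over the 20 autosomes was 32.4% ± 2.47 (SD) of H3K4me3 peaks and 51.6% ± 3.50 of H3K27ac peaks. Chromosome 19 had the lowest share for H3K4me3, 26.1%, and the highest for H3K27ac, 62.3%. Chromosome 5 had the reverse, the highest share for H3K4me3, 35.9%, and the lowest for H3K27ac, 47.2%. The shares of both chromosomes went with their peak numbers per Mb: chromosome 19 had 154 H3K4me3 and 72.6 H3K27ac peaks per Mb, and chromosome 5 had 91.5 and 73.8. Relative to shifted lists chromosome 19 was the lower for both marks, with 4.45 times for H3K4me3 and 4.70 times for H3K27ac, against 7.81 and 8.08 times on chromosome 5. Chromosome 16, the densest in H3K4me3 with 163 peaks per Mb, had the lowest ratios, 4.24 and 4.50.

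The ESC lists gave the opposite asymmetry, with an H3K27ac list of 376101 peaks in place of 213657. In iPSC 32.8% of H3K4me3 and 51.1% of H3K27ac peaks overlapped, and in ESC 46.6% of H3K4me3 and 40.3% of H3K27ac peaks. After the ESC H3K27ac list was limited to its 213657 peaks of highest −log10 q, the ESC shares were 32.6% and 48.4%, close to those of iPSC. Relative to shifted lists the overlap was 5.94 and 6.20 times in iPSC, and 4.83 and 4.89 times in ESC. List length moved with the difference between the cell types, and its part in the ratios was not tested.

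Overlap increased with the strength of a peak in both lists. When the H3K4me3 list was ranked by −log10 q into 5 equal groups, 20.6% of the weakest group overlapped H3K27ac and 51.0% of the strongest, with shifted levels of 4.07% and 9.30%. In the H3K27ac list 36.8% of the weakest group overlapped H3K4me3 and 74.8% of the strongest, with shifted levels of 7.98% and 9.13%. Stronger H3K4me3 peaks were also wider, with a median of 220 bp in the weakest group and 802 bp in the strongest. Among peaks of 200 to under 300 bp alone, the share was 20.8% in the weakest group and 45.7% in the strongest for H3K4me3. For H3K27ac peaks of that width it was 38.0% in the weakest group and 74.6% in the strongest.

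Width separated the marks. Of H3K27ac peaks under 200 bp wide, 39.9% overlapped H3K4me3, and the share was higher in each wider class. It reached 98.8% of the 1262 peaks of 1000 to under 2000 bp and 56 of the 56 peaks of 2000 bp or more (93.6% to 100%). A wide H3K27ac peak without H3K4me3 was thus rare: 15 peaks of 1000 to under 2000 bp and 0 wider ones. The H3K4me3 peaks behaved otherwise, with 20.7% of those under 200 bp on H3K27ac, 53.9% of those of 1000 to under 2000 bp and 48.7% of those of 2000 bp or more. In that widest class the shifted level was 19.7%, so the ratio to shifted lists was lowest there.

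**Figure D1:**
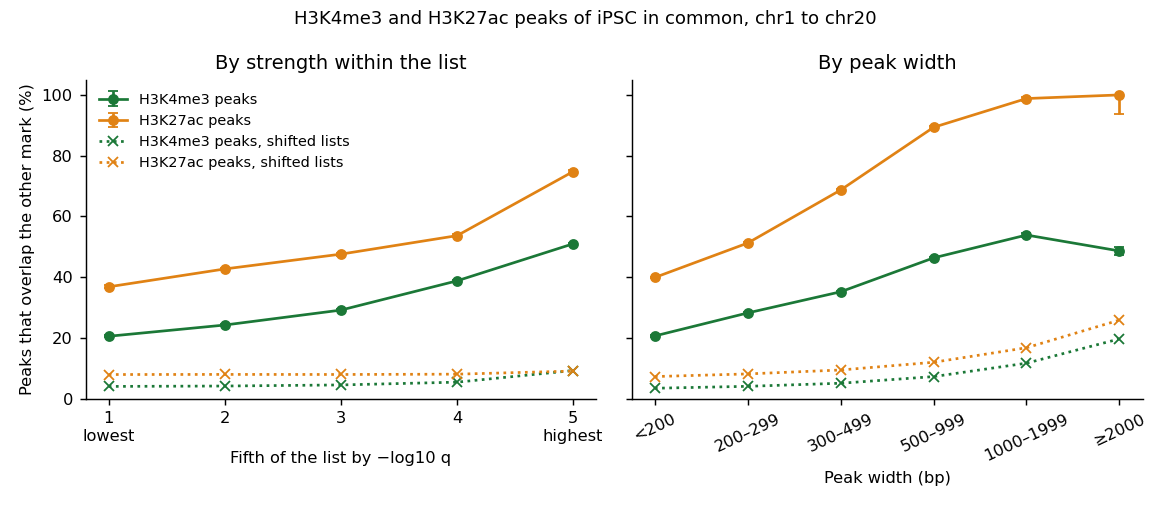
The share of iPSC peaks that overlap the other mark is plotted as points with 95% Wilson intervals, in 5 equal groups by −log10 q (left) and by peak width in bp (right), with dotted lines for the mean of 100 shifted lists. H3K27ac peaks rise to 100% of those of 2000 bp or more, while H3K4me3 peaks reach 53.9% at 1000 to under 2000 bp and 48.7% above.

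Where the marks overlapped, 1 peak of each was the rule. Of the overlapping H3K4me3 peaks 91.8% had 1 H3K27ac partner, 7.15% had 2 and 1.05% had 3 or more, with at most 7. Of the overlapping H3K27ac peaks 98.9% had 1 H3K4me3 partner and 1.09% had 2. Of the 110521 overlapping pairs, the H3K27ac peak lay inside the H3K4me3 peak in 64368 (58.2%). It reached past the left end in 16.6% and past the right end in 16.7%, and the H3K4me3 peak lay inside the H3K27ac peak in 8.51%. The same start and end were found in 28 pairs. The overlap had a median length of 206 bp, the median width of an H3K27ac peak.

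In 90444 pairs each peak had the other as its only partner. The H3K4me3 peak was the wider in 75.7% of them, with median widths of 350 bp for H3K4me3 and 232 bp for H3K27ac. Across these pairs fold enrichment was related with a Spearman's rho of 0.435 and width with 0.370; pairs share a locus and are not independent. Strong H3K4me3 therefore went with strong H3K27ac, and the relation was loose.

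Summits, the single base of highest enrichment in each peak, of the 2 marks lay close together. From an H3K27ac summit the nearest H3K4me3 summit was at a median distance of 507 bp, against 4480 bp in shifted lists. Within 10 bp lay 11.7% of the H3K27ac summits against 0.251% in shifted lists, and within 50 bp 29.6% against 1.21%. Within 200 bp lay 85635 summits, 40.1% (39.9 to 40.3), against 4.76%, which is 8.43 times the shifted level. The same base was the summit of both marks in 2245 cases, 1.05% of H3K27ac summits. From an H3K4me3 summit the nearest H3K27ac summit was at a median of 1512 bp, against 5817 bp in shifted lists, and within 200 bp for 27.8% against 3.31%. Both sides were nearly equally frequent: 49.9% of the H3K4me3 summits within 1 kb of an H3K27ac summit lay to its right along the coordinates.

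The 2 marks of iPSC coincided less closely than the same mark in both cell types. From an iPSC H3K27ac summit the nearest ESC H3K27ac summit was at a median of 38 bp, and within 200 bp for 69.0%. From an iPSC H3K4me3 summit the nearest ESC H3K4me3 summit was at a median of 77 bp, and within 200 bp for 58.3%. The shifted levels within 200 bp were 5.80% for H3K27ac and 4.78% for H3K4me3. Between the marks of ESC, 32.7% of H3K27ac summits lay within 200 bp of an H3K4me3 summit, and 40.2% of H3K4me3 summits within 200 bp of an H3K27ac summit.

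Summit pairs were most frequent at the shortest distances, with a lower and broader maximum near 400 bp. When all pairs of summits up to 2 kb apart were counted in bins of 25 bp, 44783 pairs lay at 0 to 24 bp, 35.7 times the shifted level. The count was lowest at 125 to 149 bp, with 1916 pairs and 1.50 times the shifted level, and higher again at 400 to 424 bp, with 3506 pairs and 2.75 times. From there it declined to 2335 pairs and 1.77 times at 1975 to under 2000 bp. In ESC the first bin held 68041 pairs (30.9 times), the lowest ratio was again at 125 to 149 bp (1.08 times), and beyond it the ratio was highest at 375 to 399 bp (2.28 times). The caller gives 1 summit per peak, and within a list only 34 neighbouring H3K4me3 summits and 35 neighbouring H3K27ac summits lay under 200 bp apart. Within the lists the summit pairs were also most frequent near 400 bp, at 375 to 399 bp for H3K4me3 (3406 pairs) and at 425 to 449 bp for H3K27ac (1565 pairs). The spacing within each list thus moved with both the minimum and the second maximum, and its part in them was not tested.

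**Figure D2:**
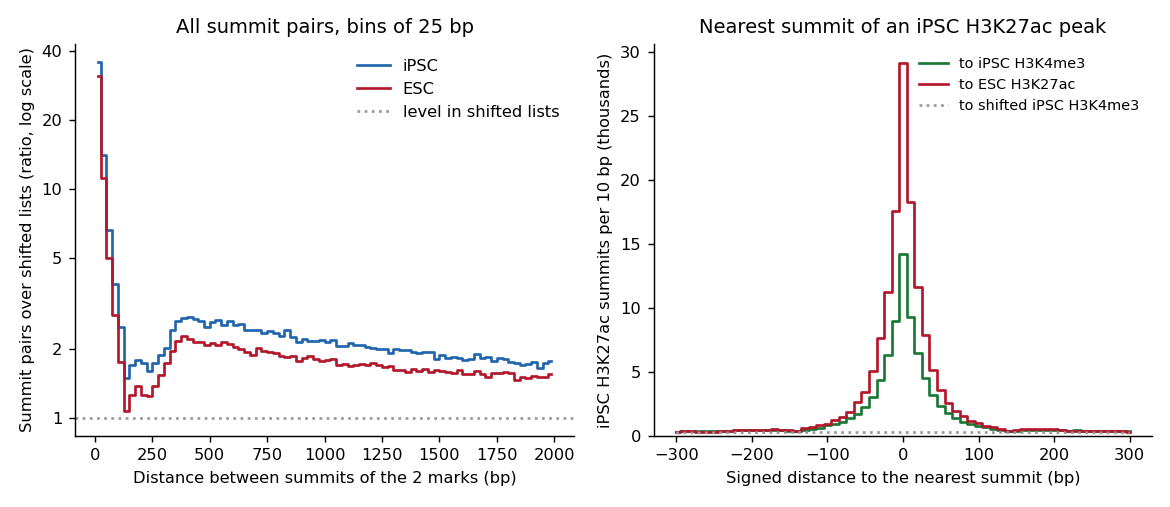
Left, pairs of an H3K4me3 and an H3K27ac summit by their distance in bins of 25 bp, as a ratio to the mean of 100 shifted lists on a log axis, for iPSC and ESC; the iPSC ratio is 35.7 in the first bin, 1.50 at 125 to 149 bp and 2.75 at 400 to 424 bp. Right, the signed distance from each iPSC H3K27ac summit to the nearest iPSC H3K4me3 summit, to the nearest ESC H3K27ac summit and to the nearest shifted H3K4me3 summit, as the number of summits per 10 bp in units of 1000; the peak at 0 is taller for the same mark in ESC.

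The wider the H3K4me3 peak, the farther the H3K27ac summit could lie. Overlap itself limits the distance between summits of narrow peaks, and no shifted level was computed for these distances. From the summit of an overlapping H3K4me3 peak under 200 bp wide, the nearest H3K27ac summit was at a median of 22 bp, and within 50 bp in 77.2%. For peaks of 1000 to under 2000 bp the median was 62 bp with 47.3% within 50 bp. For peaks of 2000 bp or more it was 234 bp, with 37.0% within 50 bp and 47.1% within 200 bp. Of the pairs with 1 peak of each mark, 63.3% had summits 50 bp or less apart, 22.8% had summits over 50 and up to 200 bp apart and 14.0% had summits farther apart. Those farther apart had wider H3K4me3 peaks, 753 bp against 307 bp at 50 bp or less. Their H3K4me3 peaks also overlapped H3K27me3 more often, 18.6% against 6.68%, and their H3K27ac peaks overlapped ESC H3K27ac in 85.5% against 83.2%. Neither share followed distance step by step, since pairs over 50 and up to 200 bp apart had the lowest values, 5.36% and 81.2%. Overlap with H3K27me3 also went with width. Among all H3K4me3 peaks with H3K27ac it was 2.81% for those under 200 bp wide and 37.4% for those of 1000 bp or more. Pairs of equal width were not compared, so the part of width in both shares was not tested.

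To describe the flanks, H3K4me3 peaks within 1 kb of each other were joined to 189739 domains with a median width of 416 bp. The summit of the strongest peak was taken as the centre of a domain, and H3K27ac summits over 75 bp and up to 1 kb away counted as flanking. The lists carry no strand, so left and right are those of the coordinates. H3K27ac flanked 4968 domains on both sides, 2.62% (2.55 to 2.69), against 1.29% in shifted lists. The share was 6.56% with a flank of 2 kb, 4.07% of unjoined peaks and 1.25% with firm peaks, where shifted lists gave 3.43%, 1.30% and 0.561%. With the 1 kb flank and all peaks, H3K27ac lay on 1 side of 21.1% against 11.8%. It lay within 75 bp of the centre alone in 19.6%, against 0.870%, and no H3K27ac summit lay within 1 kb in 56.7%, against 86.0%. As a ratio to its shifted level H3K27ac at the centre alone stood highest, and both 1-sided arrangements were equally frequent, 10.5% left and 10.6% right.

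H3K27ac on both sides of the centre was most frequent at domains of 2 to 5 kb. The 1 kb window lies largely inside a domain of 2 kb or more (median width 2988 bp), so there it describes H3K27ac within the domain. Of domains under 0.5 kb wide 0.863% had them, against a shifted level of 1.28%. By the way domains were joined, such a domain has no further H3K4me3 peak within 1 kb. Of domains of 0.5 to 1 kb 2.59% had both-sided flanks, of those of 1 to 2 kb 5.19% and of those of 2 to 5 kb 7.22%, against about 1.30% in shifted lists. Of domains of 5 to 10 kb 6.46% had them, and of the 576 domains of 10 kb or more 3.47% (20 domains), where single shifts reached 2.78%. The share with no H3K27ac summit within 1 kb was 65.2% under 0.5 kb, lowest at 2 to 5 kb with 40.8%, and 76.2% at 10 kb or more.

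Among the 24505 domains of 2 kb or more, 7.04% were flanked on both sides, 34.8% on 1 side and 15.4% had H3K27ac at the centre alone. A domain with H3K27ac on its left had it on its right in 28.9%, and a domain without it on its left in 23.1%. The 2 sides were thus only loosely tied. Against the 7.04% in iPSC, where shifted lists gave 1.31%, in ESC 10.2% of domains of 2 kb or more had both-sided flanks, where shifted lists gave 3.17% with a longer H3K27ac list.

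**Figure D3:**
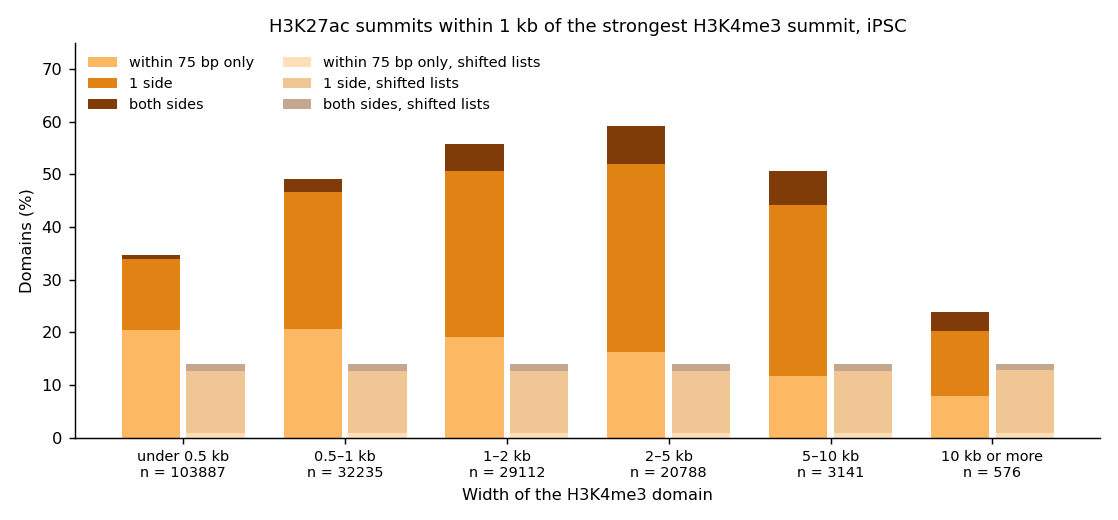
Stacked bars give the percent of iPSC H3K4me3 domains, by width, with an H3K27ac summit within 75 bp of the centre only, on 1 side or on both sides, up to 1 kb away; full colour is observed and pale colour the mean of 100 shifted lists. The both-sided part is 7.22% at 2 to 5 kb, and the whole bar is lowest at 10 kb or more, where 76.2% of domains have no H3K27ac summit in reach.

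H3K27ac coverage about the domain centre had a narrow summit on a shoulder that grew with the domain. At the centre H3K27ac covered 26.7% of the domains under 0.5 kb, 36.7% of those of 0.5 to 2 kb, 42.4% of those of 2 to 5 kb and 34.3% of those of 5 kb or more. At 300 to 350 bp from the centre it covered 2.13%, 8.25%, 13.9% and 12.9%, with a shifted level of about 2.13%. At 950 to 1000 bp it covered 1.34%, 3.56%, 9.44% and 10.6%. H3K27ac showed no dip at the centre in any width class: its coverage was highest where H3K4me3 was highest. The centre is an H3K4me3 summit by definition and no gene was used, so these profiles cannot show a dip at a gene start.

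Beyond the ends of wide domains H3K27ac was sparse. From 200 to 1000 bp outside the ends of domains of 2 to 5 kb it covered 1.48% on average (1.39% to 1.55% in steps of 100 bp), against 14.6% over the first 1000 bp inside. For domains of 5 kb or more it covered 1.11% outside (0.991% to 1.35%), against 10.6% inside. The values outside were below the shifted level about the centre, 2.13% and 2.16%. No H3K4me3 peak lies within 1 kb outside an end, by the way domains were joined.

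**Figure D4:**
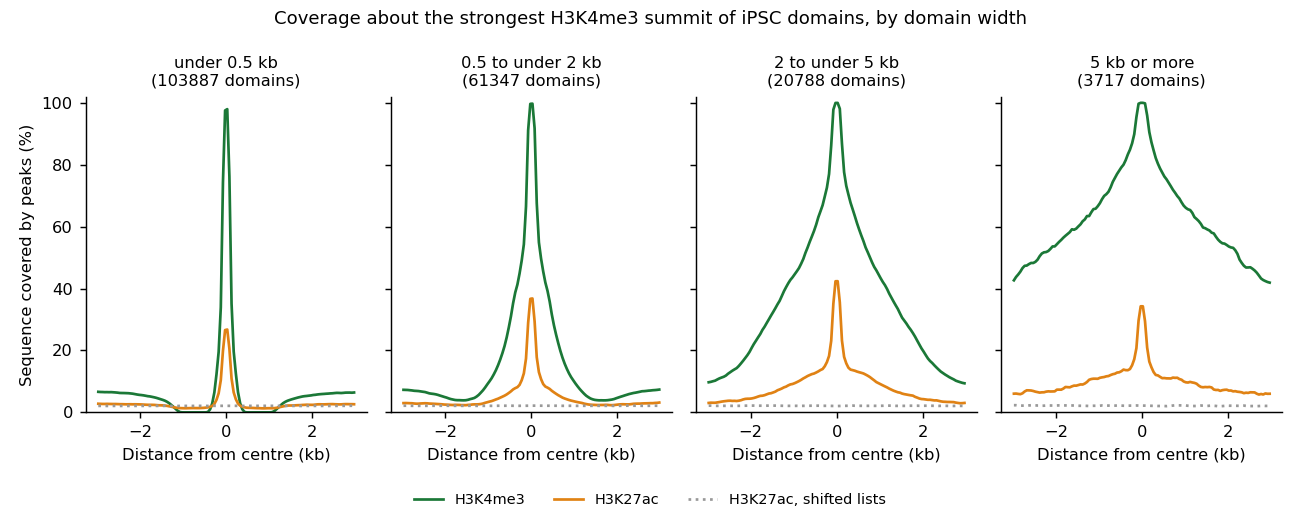
The percent of domains covered by H3K4me3 and H3K27ac peaks is plotted against the distance in kb from the strongest H3K4me3 summit, in 4 classes of domain width, with a dotted line for H3K27ac in shifted lists. H3K27ac covers 42.4% at the centre of domains of 2 to 5 kb and 13.9% at 300 to 350 bp. In domains of 5 kb or more it still covers 10.6% at 950 to 1000 bp.

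Within domains of 2 to 5 kb, H3K27ac summits were less concentrated at the ends than H3K4me3 summits, though still most frequent there. When the way from an end of a domain to its midpoint was divided into 5 equal parts, the outermost part held 24.3% of 28532 H3K27ac summits, the next 15.7% and the middle part 21.3%. The same parts held 35.7%, 16.1% and 16.1% of the H3K4me3 summits, whose outermost share follows from a domain ending at a peak. Relative to shifted lists, H3K27ac summits stood at 6.76 times in the outermost part, 4.38 times in the next and 5.87 times in the middle. In domains of 5 kb or more H3K27ac was nearly even, from 21.6% in the outermost part to 19.4% in the middle.

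The ends of marked regions were more often H3K4me3 than H3K27ac. Peaks of both marks within 1 kb of each other were joined, which gave 101192 regions of H3K4me3 alone (median 306.5 bp), 73136 of H3K27ac alone (189 bp) and 86471 with both (1016 bp). Shifted lists gave 35771 regions with both, so the observed number was 2.42 times that level. H3K4me3 formed both ends of 48.0% of the regions with both marks, against 21.6% in shifted lists. H3K27ac formed both ends of 9.96%, against 8.67%, and the ends differed in 42.1%, against 69.8%. In regions of 2 kb or more H3K4me3 formed both ends in 62.3% and H3K27ac in 8.49%. The regions with both marks held more H3K4me3 than H3K27ac peaks, 164568 against 133929, and H3K4me3 peaks were wider. The part of number and width in the ends was not tested.

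Peaks of a mark alone, with no overlap with the other mark, were the larger class for H3K4me3 and the smaller for H3K27ac. H3K4me3 lay alone at 207098 peaks (67.2%) and H3K27ac at 104411 (48.9%). Peaks alone were narrower, with medians of 259 bp alone and 378 bp with both marks for H3K4me3, and 185 bp and 237 bp for H3K27ac. They were also weaker, with a median fold of 3.42 alone and 4.08 with both for H3K4me3, and 2.72 and 3.10 for H3K27ac. Firm peaks made up 72.3% of H3K4me3 alone and 84.9% of H3K4me3 with H3K27ac. They made up 47.7% of H3K27ac alone and 66.5% of H3K27ac with H3K4me3.

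Peaks alone were still nearer the other mark than in shifted lists. From H3K4me3 alone the nearest H3K27ac peak was at a median of 3.97 kb, against 5.51 kb in shifted lists. From H3K27ac alone the nearest H3K4me3 peak was at 3.39 kb, against 4.20 kb. At gaps of 200 to under 1000 bp lay 18.7% of H3K4me3 alone (shifted 9.52%) and 17.6% of H3K27ac alone (11.0%). At gaps under 200 bp lay 4.11% of H3K4me3 alone (7.96%) and 3.97% of H3K27ac alone (11.3%). A gap of 200 to under 1000 bp was thus more frequent than in shifted lists. For gaps under 200 bp the shifted shares are no like comparison, since they also hold peaks that overlap the shifted list. Peaks alone have no overlap by definition, while in shifted lists 5.52% of all H3K4me3 and 8.24% of all H3K27ac peaks overlapped. H3K27ac peaks alone were also isolated from their own kind, with 21.2% within 1 kb of another H3K27ac peak, against 39.2% of those with H3K4me3.

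H3K4me3 without H3K27ac overlapped Polycomb and heterochromatin marks more often than H3K4me3 with it. The lists of these marks were deposited as broad peaks, and firm peaks made up 3.94% of iPSC H3K27me3 and 11.7% of iPSC H3K9me3. Most calls in them were thus below the firm limit. Of H3K4me3 alone 18.1% (17.9 to 18.3) overlapped iPSC H3K27me3, and of H3K4me3 with H3K27ac 9.68% (9.50 to 9.86), with shifted levels of 5.56% and 6.21%. The share was higher for H3K4me3 alone on 20 of 20 autosomes and in each of the 5 strength groups, by 10.5 to 14.5 percentage points. H3K4me3 with H3K27ac was above its shifted level in the strongest group alone, with 22.8% against 8.37%. In the other 4 groups it lay below, at 2.74% to 4.95% against 4.72% to 5.81%. H3K4me3 alone was above its shifted level in each group, at 37.3% against 8.62% in the strongest and 14.1% to 15.5% against 4.79% to 5.65% in the other 4. H3K9me3, the mark of constitutive heterochromatin and silenced repeats, overlapped 14.2% of H3K4me3 alone and 7.48% of H3K4me3 with H3K27ac, with shifted levels of 10.1% and 11.1%. For H3K9me3 the difference was 11.4 points in the weakest group and 1.03 points in the strongest.

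The 2 repressive marks overlapped each other at these peaks. Of the 37507 H3K4me3 peaks alone that lay on H3K27me3, 18563 lay on H3K9me3 as well, and 18944 lay on H3K27me3 only. The ESC H3K27me3 list gave the same order for the iPSC peaks, 15.4% of H3K4me3 alone and 6.52% of H3K4me3 with H3K27ac.

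H3K27ac without H3K4me3 overlapped both repressive marks less often than shifted lists did. Of H3K27ac alone 1.39% (1.32 to 1.46) overlapped H3K27me3 and of H3K27ac with H3K4me3 8.42%, with shifted levels of 4.51% and 4.99%. For H3K9me3 the shares were 3.92% and 6.52%, with shifted levels of 8.62% and 9.26%. Both differences had the same sign on 20 of 20 autosomes. H3K27ac with H3K4me3 lay on H3K27me3 in 4.66% of the weakest group and in 15.7% of the strongest. Those with H3K4me3 that were also at least 1000 bp wide overlapped H3K27me3 in 52.7% of 1303 peaks, a class for which no shifted level was computed.

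The peaks of 1 mark alone in iPSC most often lay on the same mark alone in ESC. Of H3K4me3 alone, 45.9% lay on ESC H3K4me3 without ESC H3K27ac, 18.2% on both ESC marks and 31.3% on neither. Of H3K27ac alone, 55.6% lay on ESC H3K27ac without ESC H3K4me3, 10.3% on both and 32.6% on neither. Of the peaks with both marks in iPSC, 72.3% of the H3K4me3 peaks and 72.1% of the H3K27ac peaks lay on both ESC marks. ESC H3K27ac covered part of 65.9% of H3K27ac alone and 84.3% of H3K27ac with H3K4me3, with shifted levels of 6.95% and 8.02%. Both classes were thus found again in ESC far above shifted lists, and at equal strength the class alone was lower by 12.3 to 15.0 points.

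**Figure D5:**
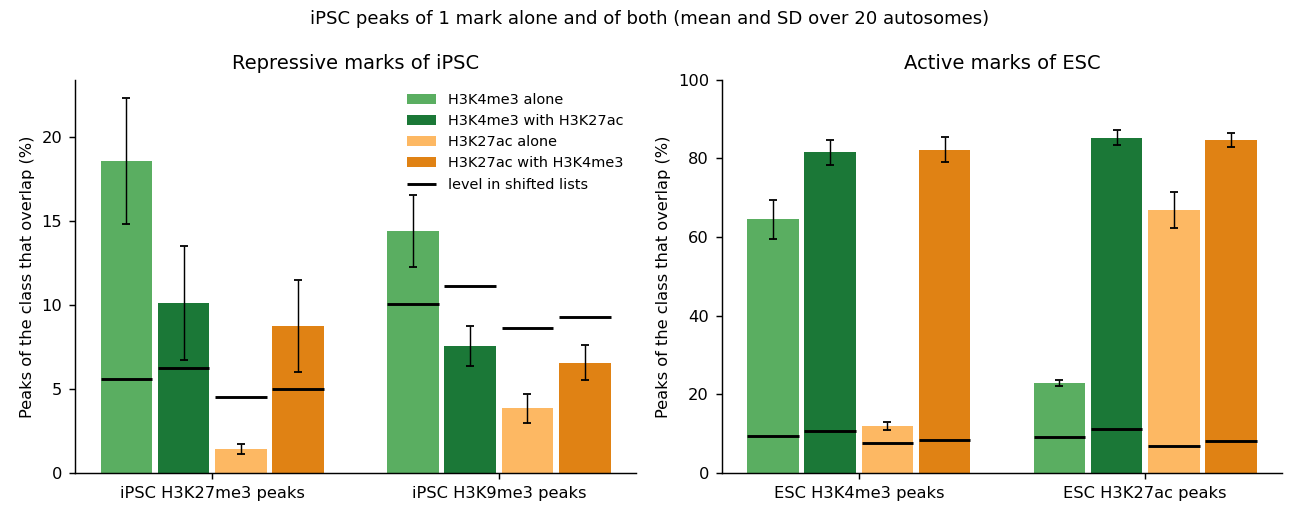
Bars give the mean over 20 autosomes, with the SD, of the percent of iPSC peaks that overlap the repressive marks of iPSC (left) and the active marks of ESC (right), for H3K4me3 and H3K27ac peaks alone and with both marks; black lines are the shifted levels. H3K27ac alone lies below its shifted level for H3K27me3 (1.39% of all peaks against 4.51%), and H3K4me3 alone above its own (18.1% against 5.56%).

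Wide H3K4me3 domains without H3K27ac were more often, and more fully, covered by H3K27me3. Of the domains of 2 kb or more, 7980 had no H3K27ac peak and 16525 had one, and H3K27me3 overlapped 66.8% of those without and 40.7% of those with it. Of the domains of 5 kb or more, it overlapped 94.7% of 1309 without H3K27ac and 67.0% of 2408 with it. Of the domains of 10 kb or more, it overlapped 296 of the 296 without H3K27ac and 87.9% of 280 with it, and covered 87.5% and 38.5% of their sequence. No shifted level was computed for these shares. Median widths at 2 kb or more were nearly equal, 2.99 kb in each class. At 10 kb or more they were 14.9 kb without and 12.0 kb with H3K27ac. In that widest class 48.6% of the domains held an H3K27ac peak, against a shifted level of 57.2%, while at 2 to 5 kb the share was 67.9% against 20.4%.

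Single regions show these forms. They were taken by fixed orders, 5 in each of 4 sets, and are given in the coordinates of the lists, for which the sources used here give no build. The domain with the most sequence under both marks lay at 16988417 to 17005458 of chromosome 10. It spanned 17.0 kb, with 18 H3K4me3 and 16 H3K27ac peaks, 8.61 kb under both and no H3K27me3 or H3K9me3 peak. The next, of 14.6 kb at 50414142 to 50428732 of chromosome 11, had 7.01 kb under both marks, and its strongest summits were 18 bp apart. In the other 3, on chromosomes 18, 9 and 1, both marks covered 6.18 to 6.57 kb together. The strongest summits of the 2 marks lay farther apart in the first domain, at a signed distance of -5609 bp. In these 3 the distances were 796, 5653 and -6745 bp. H3K27me3 covered 7.64% to 17.3% of those 3.

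The widest domain without H3K27ac within 1 kb lay at 50017206 to 50103974 of chromosome 11, 86.8 kb with 69 H3K4me3 peaks. A single H3K27me3 peak covered it whole, and the nearest H3K27ac peak was 113 kb away. Of the other 4, at 61827670 to 61892489 of chromosome 12, 30173555 to 30232849 of chromosome 16, 70921464 to 70973583 of chromosome 7 and 114498099 to 114539826 of chromosome 11, H3K27me3 covered 89.7% to 99.3%. These domains of 41.7 to 86.8 kb had H3K4me3 over 73.1% to 87.8% of their length, with a highest fold of 8.73 to 11.8.

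The strongest H3K27ac peak without H3K4me3 within 1 kb, at 161021061 to 161021331 of chromosome 2, was a narrow peak of 271 bp with a fold of 6.09. It also lay on H3K27me3 (98.2% of its length) and on H3K9me3 (100%), and had no ESC H3K27ac peak. The third, at 10061499 to 10061676 of chromosome 8, lay wholly on both repressive marks and likewise had no ESC H3K27ac peak. Of all H3K27ac peaks alone, 0.986% lay on both repressive marks. The other 3, at 3608138 to 3608339 of chromosome 17, 51070934 to 51071286 of chromosome 20 and 5713523 to 5714060 of chromosome 15, lay on no repressive mark and had ESC H3K27ac over 87.6% to 97.0% of their length. The peak on chromosome 15 also had an ESC H3K4me3 peak over 39.0% of its length.

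The widest cluster of H3K27ac away from H3K4me3 lay at 51987014 to 51992484 of chromosome 3, with 6 peaks over 5.47 kb and the nearest H3K4me3 peak 7.34 kb away. A second cluster, at 74481225 to 74485730 of chromosome 16, held 7 peaks over 4.51 kb. The other 3 lay at 34625788 to 34630240 and 151980985 to 151984923 of chromosome 3 and at 1754780 to 1758860 of chromosome 5. Each of the 5 clusters had 5 to 7 peaks with a highest fold of 2.84 to 3.53, no repressive mark, and ESC H3K27ac over 35.5% to 84.0% of its length. They were far smaller than the widest H3K4me3 domains, of 3.94 to 5.47 kb against 41.7 to 86.8 kb. The cluster on chromosome 5 also had an ESC H3K4me3 peak over 5.27% of its length.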

How the data were processed

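ChIP-seq peak lists were used, 1 for each cell type and mark; the labels do not say whether feeder cells were removed. The submitters' processing notes name deepTools, MACS2, Picard and SAMtools 1.10. Which aligner, build and thresholds were used, and how libraries and inputs were combined, was not given in the sources used here. Each deposited peak has a fold enrichment over background, a ratio from the authors' peak caller, used here only to describe and rank peaks within a list. Each deposited peak also has a −log10 of its q, used for ranking and for the firm limit of 5. The H3K4me3 and H3K27ac peaks have a summit. Those of H3K27me3 and H3K9me3, deposited as broad peaks, have none. No value column was left unmapped (0), and no read counts were used.

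Overlap, coverage, nearest summits and joined regions were computed in Python 3.11.15 with numpy 2.4.6, pandas 2.3.3 and SciPy 1.17.1, and checked on simulated peaks. Overlap meant at least 1 bp in common. Chromosomes ran to the furthest peak end in the 8 lists. Shifted levels are means over 100 evenly spaced circular shifts along each chromosome; they describe and give no p. Peaks of a list never overlapped or touched (0 neighbours), so merging them changed nothing.

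No genome was used. The gene table at hand, of assembly Panubis1.0, ended over 5 Mb from the last peak on 12 of 20 autosomes, so no gene was assigned and no sequence is shown. Named regions were the first 5 of 4 sets: H3K4me3 domains by sequence under both marks; H3K4me3 domains without H3K27ac within 1 kb, by width; H3K27ac peaks without H3K4me3 within 1 kb, by −log10 q; and their clusters, by width. The members, lists and rules were chosen with earlier results of these data known. The alternatives concerned the overlap rule, the peaks used, the windows, the joining and the distance of the shifts.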

Additional observations from a re-analysis of the deposited data

Results flagged for a closer look

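Peaks outside chromosomes 1 to 20 entered no comparison above, and those of the X and the unplaced scaffolds also showed both marks together. On the X chromosome 20.1% of 8871 H3K4me3 peaks overlapped H3K27ac, and 59.1% of 3135 H3K27ac peaks overlapped H3K4me3. Shifted lists of the X gave 1.35% and 3.89%, so the overlap was 14.8 and 15.2 times those levels, against 5.94 and 6.20 times on the autosomes. The H3K4me3 share of the X was below that of every autosome (lowest 26.1%). Its H3K27ac share lay within their range (47.2% to 62.3%). The higher ratios thus went with lower shifted levels, and the part of peak density in them was not tested.

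On the unplaced scaffolds 20.05% of 13472 H3K4me3 peaks overlapped H3K27ac, and 57.0% of 4996 H3K27ac peaks overlapped H3K4me3. No shifted level was computed there. Of the few mitochondrial peaks, 94.4% of 18 in the H3K4me3 list and 60.0% of 15 in the H3K27ac list overlapped the other list. They also have no shifted level and are not taken here as histone marks.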

How the results depend on the processing

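No paired analysis was possible because each mark has 1 list, with no replicate columns, and for the same reason no library could be left out. Depth is unknown, and it limits the length of each list and every share. With 50% of the peak's own length as the overlap rule, 22.0% of H3K4me3 and 48.7% of H3K27ac peaks overlapped, and the H3K4me3 share was 13.2 times the shifted level. With firm peaks alone these were 26.1%, 53.8% and 7.31 times, with a −log10 q of at least 10 they were 15.8%, 62.9% and 11.8 times, and with the H3K4me3 list cut to the number of H3K27ac peaks 37.7%, 41.7% and 6.13 times. Without chromosome 19, 32.95% of H3K4me3 peaks overlapped, 5.98 times the shifted level. Shifts of 20 to 118 kb, chosen after seeing the data, gave 4.95 times. H3K27ac summits with an H3K4me3 summit were 35.7% within 100 bp, 49.8% within 500 bp, 41.8% with firm peaks and 31.4% with the cut list. Both-sided flanks were found at 4.07% of unjoined peaks, 2.69% of domains joined within 3 kb, 6.56% with a flank of 2 kb, 7.04% of domains of 2 kb or more and 1.25% with firm peaks. H3K4me3 alone overlapped H3K27me3 in 14.3% by the 50% rule, 17.5% with firm peaks and 21.5% where no H3K27ac lay within 1 kb. H3K27ac alone overlapped ESC H3K27ac in 63.2%, 73.7% and 65.0% under the same changes. These shares lay outside the Wilson interval of the main value, some of them only just. Without chromosome 19 the share was 32.95% against an upper bound of 32.94%, and with joining within 3 kb 2.695% against 2.691%. The ratios have no such interval, and the cause was not tested beyond the change of peaks or rule itself.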

Other observations

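At the scale of 1 Mb the share of peaks in common varied along the autosomes and went with peak density. In 2536 of 2584 bins, those with at least 20 peaks of each mark, the share of H3K4me3 peaks on H3K27ac had a median of 33.7%, with 18.1% at the 5th and 50% at the 95th percentile. In shifted lists the median was 4.86%, with 0.429% at the 5th and 11.6% at the 95th percentile. The share of H3K27ac peaks on H3K4me3 had a median of 50%, with 32.6% and 68.7% at these percentiles. The lowest H3K4me3 share was 7.10%, 11 of 155 peaks, at 18 to 19 Mb of chromosome 1, where the bin held 21 H3K27ac peaks. The highest was 62.9%, 134 of 213 peaks, at 10 to 11 Mb of chromosome 10, where the bin held 191 H3K27ac peaks. Across bins the numbers of peaks of both marks were related with a Spearman's rho of 0.640, a description over neighbouring bins that share the lists. The H3K4me3 share of a bin was related to its number of H3K27ac peaks with a rho of 0.476, and the H3K27ac share to the number of H3K4me3 peaks with 0.654. In shifted lists too a share depends on the number of peaks of the other mark, and no rho was computed for them.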
